A study of Homo sapiens with 3 samples.

Results

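Integrins and the extracellular matrix genes around them were followed in nuclear RNA of RKO cells after UV irradiation. The members were taken by gene name: every gene that starts with ITGA or ITGB, every laminin chain (LAMA, LAMB or LAMC followed by a digit), every name that starts with COL and a digit, and HSPG2, AGRN and FN1. This rule, which used no measured value, took 28 of 9431 genes and 138 of 31565 cleavage and polyadenylation sites (pAs). They comprised 9 integrin alpha subunits (ITGA10, ITGA2, ITGA3, ITGA5, ITGA6, ITGA7, ITGAE, ITGAV and ITGAX), 2 beta subunits (ITGB1 and ITGB5), 7 laminin chains (LAMA1, LAMA5, LAMB1, LAMB2, LAMB3, LAMC1 and LAMC3), 5 collagen chains (COL13A1, COL18A1, COL6A1, COL6A2 and COL9A3) and the basement membrane proteoglycans AGRN and HSPG2. The remaining 3 genes share only the start of a name with these families. ITGB1BP1 binds the tail of the beta1 integrin, ITGB3BP is also known as a kinetochore protein, and COL4A3BP is the ceramide transfer protein. FN1 had no row among those used here.

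RKO is an established, poorly differentiated human colon carcinoma cell line. The 3 libraries were a baseline culture at 0 h and cultures allowed to recover for 0.5 h or 2 h after UV, with 1 library per time point. 3ʹREADS, which sequences the fragment next to the poly(A) tail, reads each captured RNA only at its 3ʹ end, so that a level in RPM (reads scaled to the library total) does not scale with the length of the transcript. Of the 138 pAs, 55 lay in a 3ʹ-most exon, 70 in an intron (of 21 genes) and 13 in an exon further upstream (of 6 genes).

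Integrins are receptors made of 1 alpha and 1 beta subunit that tie the actin cytoskeleton to the matrix outside the cell. Laminins are trimers of an alpha, a beta and a gamma chain and, with perlecan (HSPG2), agrin (AGRN) and type XVIII collagen, form the basement membrane on which an epithelium rests. Laminin-332, which holds LAMB3, and its receptors with the alpha3 or alpha6 subunit anchor epithelial cells. A gene with several pAs makes RNAs that differ at their 3ʹ end. Use of a pA inside an intron (intron-APA) gives an RNA that lacks the downstream exons, whereas use of another pA of the 3ʹ-most exon (3ʹUTR-APA) changes the length of the 3ʹ untranslated region.

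The table held 433093, 501600 and 437491 reads at 0, 0.5 and 2 h, so that 1 read was worth 2.31, 1.99 and 2.28 RPM. Since no time point was repeated, each p below compares the reads of 2 libraries and not 2 conditions. Among the markers used to check the label, 3 of 8 epithelial genes had a row. These were EPCAM, KRT8 and KRT18, which together had 13, 13 and 30 reads. EPCAM had 7, 6 and 0 of them, KRT8 4, 4 and 26, and KRT18 2, 3 and 4. Of 12 markers of differentiated colon epithelium, 2 had a row (CDX1 and CA2), with 1, 0 and 1 reads together in order of time. In the other marker lists, fibroblast genes had 4 reads at 2 h and none before. No endothelial gene had a row among those used here. CD68, with 1965 to 2589 reads, was the only leukocyte gene that had one. The part of the KRT8 and EPCAM reads at 2 h in any change below was not tested. All libraries came from the RKO line. In such bulk libraries fewer cells that express a gene and less RNA per cell cannot be told apart.

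ITGA3, the alpha subunit of a laminin receptor, was by far the most abundant member. It had 2592, 4623 and 2920 reads at 0, 0.5 and 2 h, or 5983, 9212 and 6666 RPM, and ranked 18th, 15th and 23rd among all genes. These reads were 65.5%, 78.1% and 77.8% of all reads of the members. The level of ITGA3 was highest at 0.5 h and close to its starting level at 2 h. It was 1.54-fold higher at 0.5 h than at 0 h (95% exact interval 1.47 to 1.62, Benjamini-Hochberg adjusted p = 2.29e-69 by Fisher's exact test) and 1.38-fold lower at 2 h than at 0.5 h (1.32 to 1.45), which left it 1.11-fold higher than at 0 h (1.06 to 1.18). These differences were below the 2-fold limit set here for a call.

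The other members were far less abundant. ITGB1, the beta subunit that pairs with ITGA3, ITGA5 and ITGAV among others, had 801, 578 and 297 RPM at 0, 0.5 and 2 h. LAMC1, the most widely used gamma chain of laminins, had 589, 458 and 504.5 RPM. LAMA5, the alpha chain of the laminins of most adult epithelia, had 644, 428 and 151 RPM. Of these, ITGB1 and LAMA5 had their lowest level at 2 h, whereas LAMC1 had its lowest level at 0.5 h, 1.28-fold lower than at 0 h (1.07 to 1.54, Benjamini-Hochberg adjusted p = 0.0579, Fisher's exact test), which was not called. Among the 28, 13 had fewer than 20 reads over the 3 libraries, and 27, 26 and 23 of the 28 had any read at 0, 0.5 and 2 h. The 11 members named here without further values (COL13A1, COL18A1, COL6A2, ITGA2, ITGA6, ITGA7, ITGAE, ITGAX, ITGB1BP1, LAMA1 and LAMC3) had 1 to 40 reads in all. The plot of levels shows the 10 most abundant members by time.

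**Figure D1:**
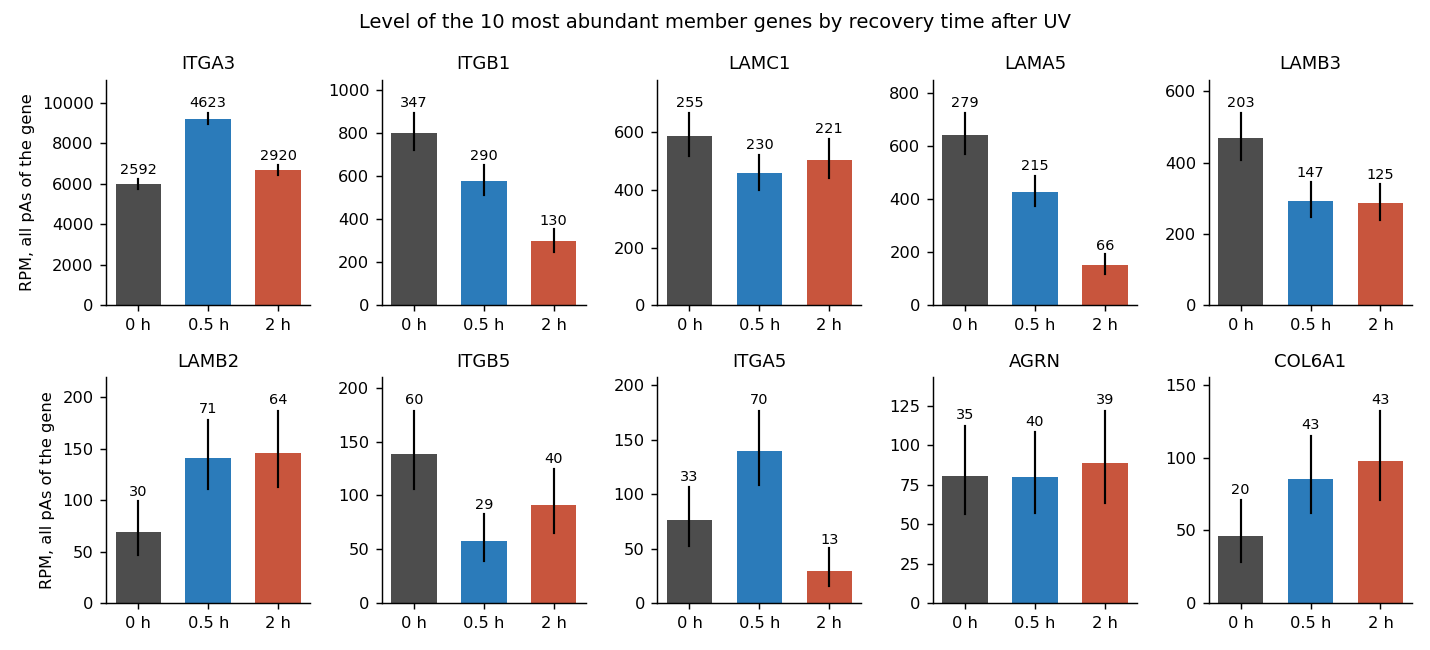
Level of the 10 member genes with the most reads, in RPM over all pAs of a gene (each panel has its own axis from 0), at 0, 0.5 and 2 h, with the read count above each bar and 95% counting intervals as lines. ITGB1 and LAMA5 step down at each time (347, 290 and 130 reads and 279, 215 and 66 reads), whereas ITGA3 and ITGA5 peak at 0.5 h (4623 and 70 reads).

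A change in level was called where the Benjamini-Hochberg adjusted p of Fisher's exact test, run on all genes with reads, was below 0.05 and the log2 ratio of RPM (0.1 RPM added) lay beyond 1 or -1. Rises and falls in RPM are relative to the library total. A change in the total amount of polyadenylated RNA was not measured. Between 0 and 2 h, 4 of 27 members fell (7.55% of all 9044 genes tested) and 2 rose (4.84% of all). Those that fell were LAMA5, ITGB1, ITGA5 and COL9A3, and those that rose were LAMB2 and COL6A1. Between 0 and 0.5 h, 2 of 28 fell, ITGB5 and COL9A3 (4.36% of all), and 1 rose, LAMB2 (2.15% of all). Between 0.5 and 2 h, 2 of 27 fell, LAMA5 and ITGA5 (4.83% of all), and none rose (5.37% of all). With reads of the 3ʹ-most exon alone, 4 of 26 fell in the 0.5–2 h window (6.32% of all genes so tested), the other two being ITGB1 and ITGAV.

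The largest loss of reads among the laminins was in LAMA5. It had 279, 215 and 66 reads at the 3 times, with the last level 4.27-fold lower than at 0 h (3.26 to 5.68, log2 ratio -2.09, adjusted p = 7.82e-31 by Fisher's exact test with Benjamini-Hochberg adjustment). Most of this difference arose after 0.5 h, with a level 2.84-fold lower at 2 h than at 0.5 h (2.15 to 3.81, Benjamini-Hochberg adjusted p = 1.35e-13, Fisher's exact test). In the first window LAMA5 was 1.50-fold lower (1.25 to 1.80), short of a call. LAMB2, the beta chain of laminins of vessels, kidney and neuromuscular junction, moved the other way. It had 30, 71 and 64 reads (69.2, 141 and 146 RPM) and was 2.04-fold higher at 0.5 h than at 0 h (1.32 to 3.24, log2 ratio 1.03) and 2.11-fold higher at 2 h (1.35 to 3.37, log2 ratio 1.08, Benjamini-Hochberg adjusted p = 0.00619, Fisher's exact test). The call of LAMB2 at 0.5 h sat at the limit, since thinning the libraries to equal reads gave a log2 ratio of 0.999. LAMB3 had 203, 147 and 125 reads and was 1.64-fold lower at 2 h than at 0 h (1.31 to 2.07, log2 ratio -0.72), which was called with 3ʹ-most-exon reads alone and not over all pAs.

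Among the integrins, both beta subunits and ITGA5 were called. ITGB1 was 2.70-fold lower at 2 h than at 0 h (2.20 to 3.33, log2 ratio -1.43, Benjamini-Hochberg adjusted p = 1.56e-22, Fisher's exact test), and its 0.5–2 h difference missed the limit at a log2 ratio of -0.96 but was called after thinning. ITGA5, whose product pairs with beta1 as the main fibronectin receptor, had 33, 70 and 13 reads in order of time (76.2, 139 and 29.7 RPM). It was 1.83-fold higher at 0.5 h than at 0 h (1.19 to 2.86), which was not called, and then 4.70-fold lower at 2 h than at 0.5 h (2.58 to 9.26, log2 ratio -2.23, adjusted p = 1.72e-07 by Fisher's exact test with Benjamini-Hochberg adjustment). ITGB5, which pairs with ITGAV in a vitronectin receptor, had 60, 29 and 40 reads. It was 2.40-fold lower at 0.5 h than at 0 h (1.51 to 3.87, log2 ratio -1.26, Benjamini-Hochberg adjusted p = 0.00154, Fisher's exact test), and at 2 h it was 1.52-fold lower than at 0 h, which was not called.

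The collagens had few reads. COL9A3, a chain of the cartilage collagen type IX, had 24 reads at 0 h and 4 in each later library. It was 6.95-fold lower at 0.5 h (2.39 to 27.6, log2 ratio -2.78) and 6.07-fold lower at 2 h (2.08 to 24.1, Benjamini-Hochberg adjusted p = 0.00130, Fisher's exact test). COL6A1, a chain of the microfibrillar collagen type VI, had 20, 43 and 43 reads. Its level at 2 h was 2.13-fold that at 0 h (1.22 to 3.82, log2 ratio 1.09, Benjamini-Hochberg adjusted p = 0.0353, Fisher's exact test). AGRN, the agrin proteoglycan, had 35, 40 and 39 reads, and its ratio of 2 h over 0 h was 1.10 (0.680 to 1.79).

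The median gene with at least 20 reads in both libraries stood at a log2 ratio of -0.10 in the 0–0.5 h window, -0.0055 in the 0.5–2 h window and -0.09 in the 0–2 h window. Relative to that median gene, the 0–0.5 h log2 ratios were 0.73 for ITGA3, 1.13 for LAMB2, -1.16 for ITGB5 and -2.68 for COL9A3, and every call of a member's level was kept. The one added call was HSPG2 in that window (log2 ratio 1.11, Benjamini-Hochberg adjusted p = 0.0300, Fisher's exact test). The members with that many reads had medians of -0.02 (11 genes), 0.00 (10 genes) and -0.04 (10 genes), with 5 higher and 6 lower in the first window and 5 each way in the other two. Over all members tested, whatever their reads, the medians were 0.47, -0.83 and -0.60, beside -0.20, 0.11 and -0.02 over all genes tested.

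**Figure D2:**
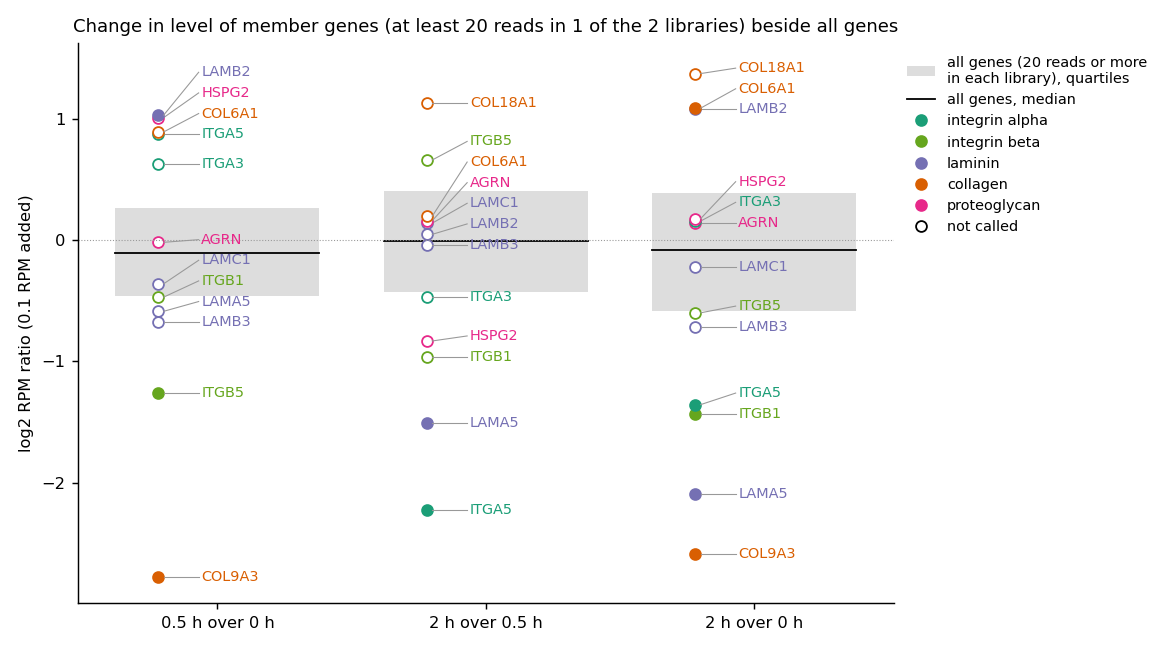
Log2 ratio of RPM (0.1 RPM added) of members with at least 20 reads in either library, per window, beside the median (line) and quartiles (grey) of all genes that had 20 reads or more at both times. Filled points were called and open points were not. In the 2 h over 0 h column the called LAMA5 (-2.09), ITGB1 (-1.43), ITGA5 (-1.36) and COL9A3 (-2.59) lie below the grey band, and LAMB2 (1.08) and COL6A1 (1.09) above it. Of the members not called, LAMB3 (-0.72) and ITGB5 (-0.60) also lie below the band and COL18A1 above it.

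Intronic polyadenylation was measured as the share of intronic reads among the intronic and 3ʹ-most-exon reads of a gene. A gene was called at a two-sided Fisher's exact p below 0.05 with a share that moved by more than 5 percentage points. In the 0–0.5 h window 2 of 13 testable members gained intronic share (6.20% of all genes tested) and 1 lost it (3.14% of all). In the 0.5–2 h window 5 of 20 gained (15.7% of all) and 1 lost (2.02% of all), and in the 0–2 h window 4 of 16 gained (15.7% of all) and none lost (1.30% of all). With Benjamini-Hochberg adjustment over all genes these counts were 0 in the 0–0.5 h window (0.651% of all genes), 3 in the 0.5–2 h window (6.03% of all) and 2 in the 0–2 h window (5.86% of all). The genes that passed with adjustment were LAMB3 and ITGB1 in both later windows and HSPG2 in the 0.5–2 h window.

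LAMB3, the beta chain of laminin-332, had the most intronic reads of any member. Its intronic reads at 0, 0.5 and 2 h were 29 of 202, 32 of 146 and 61 of 121. The intronic share was thus 14.4% (95% Clopper-Pearson interval 9.83 to 19.96), 21.9% (15.5 to 29.5) and 50.4% (41.2 to 59.6). The share at 2 h lay above the intervals of both earlier times. The rise was called from 0.5 to 2 h (p = 1.49e-06, adjusted p = 1.95e-04) and from 0 to 2 h (p = 6.60e-12, adjusted p = 3.91e-09, Fisher's exact test with Benjamini-Hochberg adjustment), and the step from 0 to 0.5 h was not (p = 0.0860, Fisher's exact test). Both classes of reads moved. Reads of the 3ʹ-most exon went from 173 to 114 and 60, a level 2.92-fold lower at 2 h than at 0 h (2.16 to 3.98), while the level of intronic reads was 2.08-fold higher (1.32 to 3.36). The level of the whole gene therefore changed less than either class.

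The intronic reads of LAMB3 were not at the same places at each time. They lay at 21 pAs, of which 6, 6 and 17 had reads in order of time, and 12 had reads at 2 h alone. The most abundant intronic pA was at position 209810892 of chromosome 1 (hg19, minus strand), upstream of the main 3ʹ-most-exon pA at position 209788239. A cluster of 6 pAs within 200 nt of the former, 22463 to 22745 nt upstream of the latter, had 27, 29 and 24 reads at 0, 0.5 and 2 h. Before 2 h nearly every intronic read of LAMB3 was in this cluster, and its number of reads was about the same in each library. Further toward the 5ʹ end, 9 pAs between 25091 and 37474 nt upstream had 1, 0 and 26 reads. The other 6, nearer the 3ʹ end than the cluster, had 1, 3 and 11 reads. The added intronic reads at 2 h thus lay outside the cluster, mostly nearer the start of the gene. Which intron holds each pA was not analysed here.

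**Figure D3:**
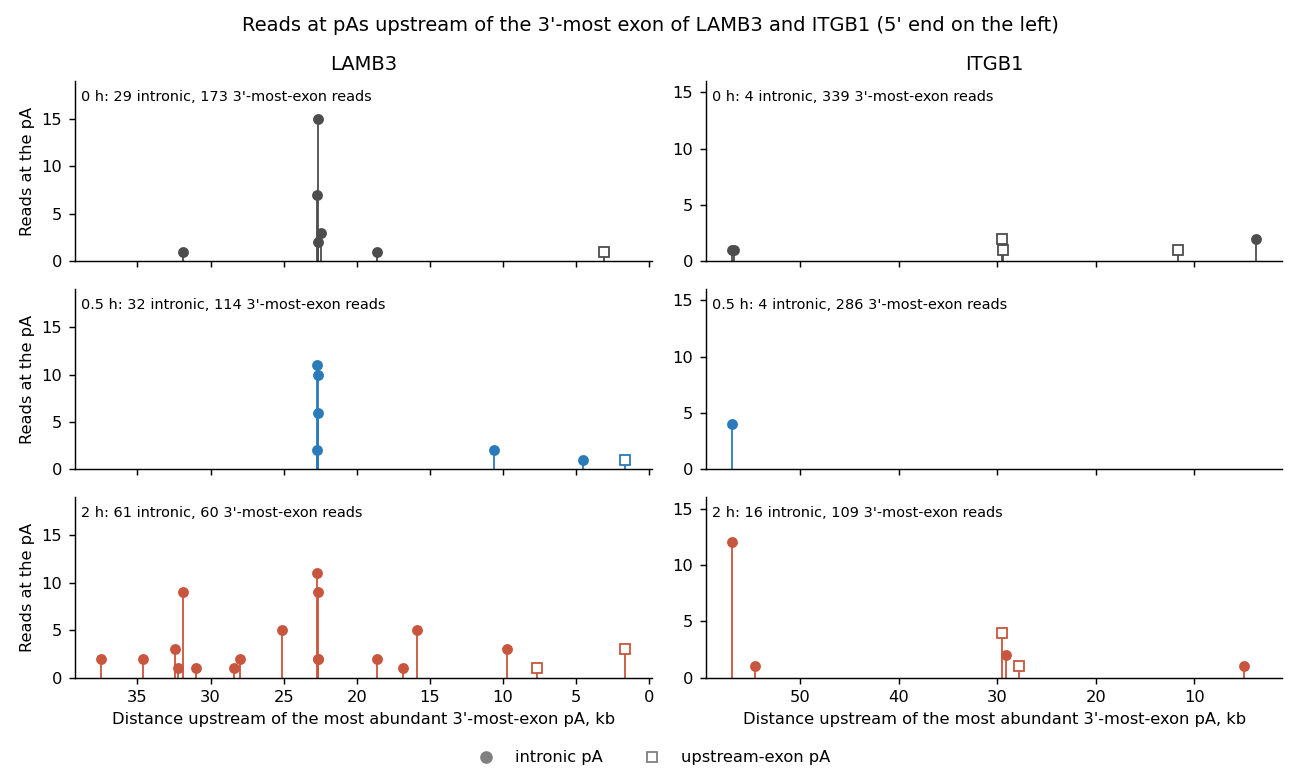
Reads at each pA upstream of the 3ʹ-most exon of LAMB3 (left) and ITGB1 (right) at 0, 0.5 and 2 h, against the distance in kb from the most abundant 3ʹ-most-exon pA (5ʹ end at the left). Filled circles are intronic pAs and open squares upstream-exon pAs. In LAMB3 the cluster about 22 kb upstream is present at each time (27, 29 and 24 reads), and most other sites carry reads only at 2 h.

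ITGB1 gained intronic share at 2 h from a far lower start. In order of time, 4 of 343, 4 of 290 and 16 of 125 reads were intronic, or 1.17% (0.319 to 2.96), 1.38% (0.377 to 3.49) and 12.8% (7.50 to 19.95). The interval at 2 h lay above both others, and the rise was called from 0.5 to 2 h (p = 3.32e-06, adjusted p = 3.51e-04) and from 0 to 2 h (p = 5.51e-07, adjusted p = 6.98e-05, Fisher's exact test with Benjamini-Hochberg adjustment). Reads of the 3ʹ-most exon numbered 339, 286 and 109, a level 3.14-fold lower at 2 h than at 0 h (2.53 to 3.94). The level of intronic reads was 3.96-fold higher at 2 h than at 0 h (1.28 to 16.3) and 4.58-fold higher than at 0.5 h (1.48 to 18.8). Of the 16 intronic reads at 2 h, 12 were at 1 pA, at position 33246235 of chromosome 10 (hg19, minus strand), 56915 nt upstream of the main pA. That site had 1 read at 0 h and 4 at 0.5 h, and the other 5 intronic pAs had 3, 0 and 4.

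HSPG2, which encodes perlecan, had intronic reads at 0.5 h alone. It had 0 intronic reads of 21 at 0 h, which allows a share of up to 14.3%, 15 of 49 at 0.5 h (30.6%, 18.3 to 45.4), and 0 of 24 at 2 h, which allows up to 12.5%. All 15 reads were at 1 pA, at position 22198345 of chromosome 1 (hg19, minus strand), 49606 nt upstream of the main pA. Reads of the 3ʹ-most exon were 21, 34 and 24. Set against 3 reads in the empty library, the level of intronic reads at 0.5 h was 4.32-fold higher than at 0 h and 4.36-fold higher than at 2 h. These folds leave out the counting error of the 15 reads. The share rose in the first window (p = 0.00323, adjusted p = 0.175) and fell in the next (p = 0.00148, adjusted p = 0.0296, Fisher's exact test with Benjamini-Hochberg adjustment). The level of the whole gene was 2.01-fold higher at 0.5 h than at 0 h (1.19 to 3.54), which was not called (adjusted p = 0.0692, Fisher's exact test with Benjamini-Hochberg adjustment) except relative to the median gene or among genes with at least 10 reads in either library.

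The other calls rested on few reads and none passed with adjustment. ITGAV, the alpha subunit of several receptors for RGD-bearing matrix proteins, had 3 intronic reads of 9, 3 of 15 and 5 of 5, a rise called from 0.5 to 2 h (p = 0.00361) and from 0 to 2 h (p = 0.0310, Fisher's exact test). It had 6 and 12 reads in the 3ʹ-most exon at 0 and 0.5 h and none at 2 h. In ITGB5 the intronic reads were 0 of 60, 0 of 29 and 4 of 40, a rise called from 0 to 2 h (p = 0.0233, Fisher's exact test), all at 1 pA 72051 nt upstream of the main one. LAMB2 had 0 of 29, 0 of 71 and 4 of 64, called from 0.5 to 2 h (p = 0.0480, Fisher's exact test). This call was lost after thinning. The remaining calls were in genes outside the adhesion families. ITGB3BP had 5 of 9, 0 of 14 and 3 of 6, called as a fall (p = 0.00374) and then a rise (p = 0.0175, Fisher's exact test). COL4A3BP had 0 of 3, 5 of 5 and 0 of 1, called in the first window (p = 0.0179, Fisher's exact test).

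LAMB1 and ITGA3 had intronic reads but no call. LAMB1, the beta chain of the widely expressed laminins, had mostly intronic reads, with 5 of 5, 7 of 10 and 3 of 3. So few reads left wide intervals (47.8 to 100%, 34.8 to 93.3% and 29.2 to 100%). ITGA3 had hardly any intronic read despite its depth, with 0 of 2591, 2 of 4620 and 6 of 2920, or 0.205% at 2 h (0.0754 to 0.447). Its change from 0 to 2 h had p = 0.0328 (Fisher's exact test) but was far below 5 percentage points.

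**Figure D4:**
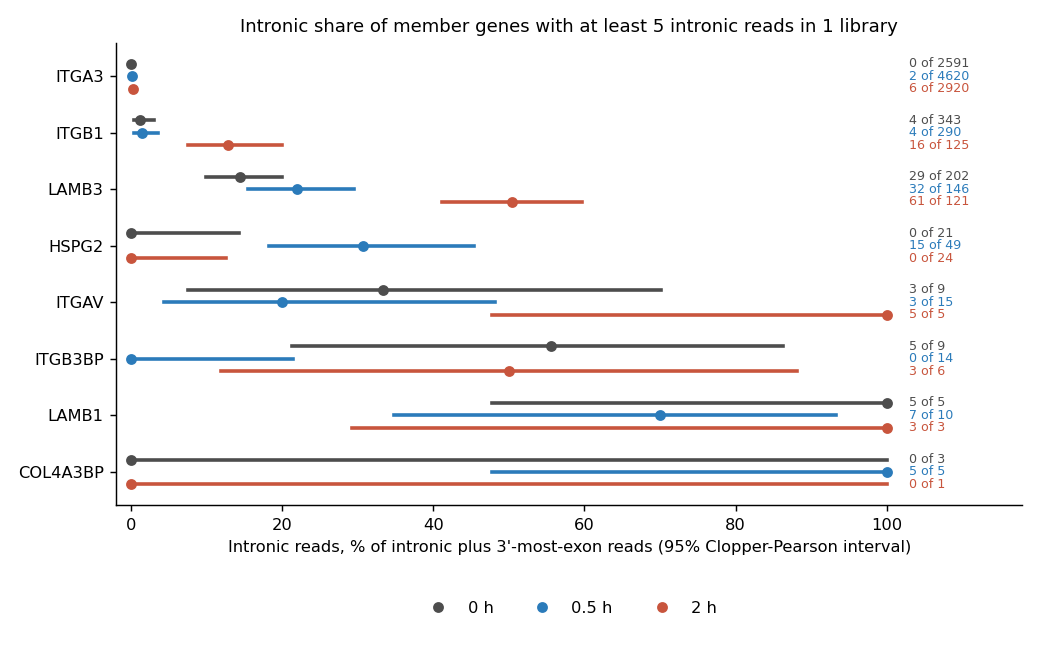
Intronic reads as a percentage of intronic and 3ʹ-most-exon reads in the 8 members with at least 5 intronic reads in a library, with 95% Clopper-Pearson intervals and the reads at the right. A line from a share of 0 ends at the share that 3 reads would give (at most 100%). LAMB3 (50.4%) and ITGB1 (12.8%) lie to the right of their earlier intervals at 2 h, HSPG2 (30.6%) does so at 0.5 h alone, and ITGA3 stays near 0.

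By family, the pooled intronic share at 0, 0.5 and 2 h was 5.03%, 6.19% and 15.0% in the laminin chains and 0.993%, 1.25% and 12.1% in the beta subunits. In the alpha subunits, nearly all of whose reads are ITGA3, it was 0.264%, 0.148% and 0.508%. Pooled over all members it was 1.39%, 1.23% and 3.05%, and without ITGA3 it was 4.05%, 5.50% and 13.2%. The shares of all genes were 6.88%, 6.02% and 8.49%. Without ITGA3 and LAMB3 together the members had 2.25%, 3.40% and 6.71%, so that LAMB3 alone carried a large part of the pooled value. The family values also rested mostly on 1 gene each. Of the intronic reads of the laminin chains, LAMB3 held 29 of 39, 32 of 42 and 61 of 72 in order of time. Of those of the beta subunits, ITGB1 held 4 of 4, 4 of 4 and 16 of 20. Among members with at least 20 reads in both libraries, the median change was 0.213 percentage points in the 0–0.5 h window (7 genes, 0.468 over all genes), 2.44 in the 0.5–2 h window (10 genes, 8 of them higher, 2.32 over all) and 4.41 in the 0–2 h window (8 genes, all higher, 2.56 over all). Over all testable members the medians were -0.392 (13 genes), 10.0 (20 genes) and 5.51 (16 genes), beside 1.42, 9.09 and 11.5 over all testable genes, so that in the 0–2 h window the members stood above all genes with the minimum of 20 reads and below them without it.

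Most intronic pAs of the members were seen in a single library. Of the 70, those with reads numbered 22, 20 and 43 in order of time, and 31 had 1 read in all. Reads in only 1 library were found for 87.1% of them, beside 81.5% of the intronic pAs of all genes. Reads only at 2 h were found for 34, or 48.6%, beside 46.5% over all genes. Without LAMB3 the 49 others had reads at 16, 14 and 26 pAs, and 44.9% had reads only at 2 h. Counted from the main pA, the 7 intronic pAs over 50 kb upstream (in 3 genes) had 5, 7 and 22 reads, those between 10 and 50 kb (41 in 13 genes) had 39, 53 and 75, and those under 10 kb (21 in 12 genes) had 10, 13 and 17. Upstream-exon pAs added 7, 6 and 10 reads, which entered the gene levels only.

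3ʹUTR-APA was tested on the leading 2 pAs within each 3ʹ-most exon, as the share of the proximal one and with the same limits. Of the members, 3 of 15 were called in the 0–0.5 h window (12.2% of all genes tested), 1 of 9 in the 0.5–2 h window (15.5% of all) and 2 of 14 in the 0–2 h window (12.6% of all). With Benjamini-Hochberg adjustment the counts were 1 (2.10% of all), 0 (2.69% of all) and 2 (3.42% of all). LAMC1 moved toward its proximal pA, ITGB5 toward its distal pA, and ITGA10 rested on few reads.

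In LAMC1 the pAs were 46 nt apart, at positions 183112114 and 183112160 of chromosome 1 (hg19, plus strand). The proximal one had 104 of 243, 138 of 223 and 147 of 212 reads at 0, 0.5 and 2 h, or 42.8% (36.5 to 49.3), 61.9% (55.2 to 68.3) and 69.3% (62.7 to 75.5). The interval at 0 h lay below both others, and those at 0.5 and 2 h overlapped. The rise was called from 0 to 0.5 h (p = 4.34e-05, adjusted p = 0.00587) and from 0 to 2 h (p = 1.29e-08, adjusted p = 3.81e-06, Fisher's exact test with Benjamini-Hochberg adjustment), and the step from 0.5 to 2 h was not (p = 0.107, Fisher's exact test). No LAMC1 level change was called in these windows.

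In ITGB5 the pAs were 215 nt apart, at positions 124482010 (proximal) and 124481795 (distal) of chromosome 3 (hg19, minus strand). The proximal one had 44 of 56, 10 of 24 and 11 of 35 reads in order of time, or 78.6% (65.6 to 88.4), 41.7% (22.1 to 63.4) and 31.4% (16.9 to 49.3). The fall was called from 0 to 0.5 h (p = 0.00190, adjusted p = 0.0690) and from 0 to 2 h (p = 1.79e-05, adjusted p = 0.00182, Fisher's exact test with Benjamini-Hochberg adjustment). The distal pA had 12, 14 and 24 reads, so that the reads lost from ITGB5 were those of the proximal pA. ITGA10, the alpha subunit of a collagen receptor, had 2 of 3, 0 of 11 and 3 of 5 proximal reads, called in both short windows (p = 0.0330 and p = 0.0179, Fisher's exact test) but not with adjustment.

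ITGA3, LAMA5 and LAMB3 had nearly all reads of the 3ʹ-most exon at 1 pA at each time. ITGA3 had 2590 of 2591, 4613 of 4616 and 2906 of 2913 reads at its proximal pA, and LAMA5 had 276 of 279, 210 of 214 and 66 of 66. LAMB3 instead used its distal pA, with 1 of 173, 0 of 114 and 0 of 60 proximal reads. In HSPG2 the proximal reads were 3 of 21, 0 of 34 and 0 of 24 (p = 0.0507 from 0 to 0.5 h, Fisher's exact test). No change within the 3ʹ-most exon was called in LAMB3, ITGB1 or HSPG2, whose proximal pAs had few reads. From 0.5 to 2 h LAMB3 and HSPG2 had no proximal read and were not tested. ITGB1 had 0 of 286 and 1 of 109 proximal reads at these times. With at most 1 proximal read in a library, LAMB3 and ITGB1 could not move by more than 5 percentage points.

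**Figure D5:**
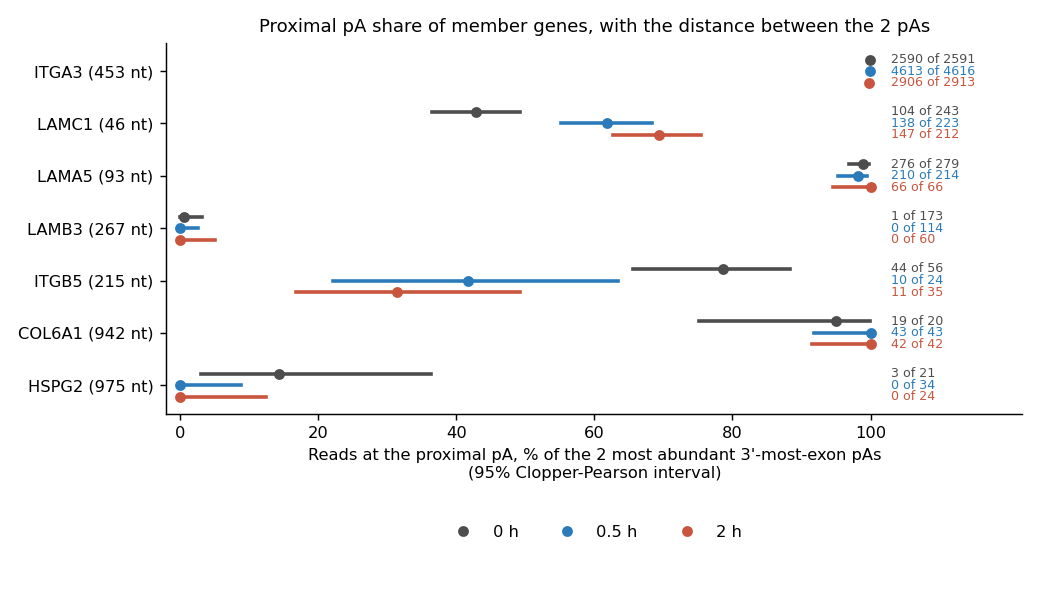
Reads at the proximal pA as a percentage of the leading 2 pAs within the 3ʹ-most exon of the best-covered members, with 95% Clopper-Pearson intervals, the reads at the right and the distance between the pAs beside the name. A line from a share of 0 ends at the share that 3 reads would give. LAMC1 goes from 42.8% to 69.3% and ITGB5 from 78.6% to 31.4% between 0 and 2 h.

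Genes that work beside the members were taken in 5 lists, and their counts are given beside the share of all genes called. Of 33 genes of the integrin adhesion complex with a row, 32 were tested for level from 0 to 2 h, and 2 rose (PXN, the scaffold paxillin, and DOCK1, beside 4.84% of all genes) and 3 fell (RHOA, FERMT1 and CRKL, beside 7.55% of all). RHOA, a GTPase of stress fibres, went from 161 to 62 reads (log2 ratio -1.39), and FERMT1, the epithelial kindlin that activates integrins, from 69 to 25 (log2 ratio -1.48). For intron-APA from 0.5 to 2 h, 2 of 16 rose (15.7% of all genes) and none fell (2.02% of all). ZYX, the focal adhesion protein zyxin, went from 10 of 248 to 56 of 276 intronic reads, or 4.03% to 20.3% (adjusted p = 2.77e-06), and FERMT1 from 0 of 31 to 7 of 25 (adjusted p = 0.0375, Fisher's exact test with Benjamini-Hochberg adjustment).

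Of the enzymes that modify collagen and matrix, 1 of 17 tested fell in level between 0.5 and 2 h (4.83% of all genes), SERPINH1, the collagen chaperone HSP47, from 223 to 66 reads (log2 ratio -1.56). Its intronic reads rose in the same window from 1 of 223 to 6 of 66, the 1 rise among 10 tested (15.7% of all genes, adjusted p = 0.0166, Fisher's exact test with Benjamini-Hochberg adjustment). Among the matrix proteases and inhibitors, none of 14 rose in level from 0 to 2 h (4.84% of all genes), and those that fell (7.55% of all) included ADAM10 and TIMP1, an inhibitor of metalloproteinases that went from 3584 to 1639 reads (log2 ratio -1.14). From 0.5 to 2 h, 2 of 13 fell, MMP1 and ADAM17 (4.83% of all genes), and none rose (5.37% of all). Of the other matrix glycoproteins, 1 of 6 rose in intronic share from 0.5 to 2 h (15.7% of all genes), NOV (13 of 57 to 37 of 64 reads, or 22.8% to 57.8%, adjusted p = 0.00439, Fisher's exact test with Benjamini-Hochberg adjustment), and 1 of 15 rose in level (5.37% of all), LTBP4, a binding protein of latent TGF-beta, from 7 to 32 reads. Of the other matrix receptors, 3 of 6 were called for 3ʹUTR-APA from 0 to 0.5 h (12.2% of all genes). The syndecan SDC1 and the hyaluronan receptor CD44 lost proximal share and CD47 gained it, of which SDC1 passed with adjustment (33.5% to 11.8%, adjusted p = 3.54e-05, Fisher's exact test with Benjamini-Hochberg adjustment). From 0.5 to 2 h 1 of 6 was called (15.5% of all genes). It was SDC1, which gained proximal share (11.8% to 22.4%, p = 0.00960, Fisher's exact test) but did not pass with adjustment. From 0 to 2 h 3 of 6 were called (12.6% of all genes). CD47 gained proximal share (4 of 11 to 17 of 17 reads, adjusted p = 0.0139, Fisher's exact test with Benjamini-Hochberg adjustment). SDC1 (33.5% to 22.4%) and CD44 (45.9% to 23.5%) lost it, neither of them with adjustment. In level, 1 of 11 receptors fell between 0.5 and 2 h (4.83% of all genes), CD44, from 131 to 48 reads (log2 ratio -1.25). From 0 to 2 h 1 of 11 rose (4.84% of all), BCAM, from 15 to 38 reads (log2 ratio 1.32), and none fell (7.55% of all). The intronic share of BCAM rose from 0.5 to 2 h (0 of 32 to 8 of 38 reads, p = 0.00629, Fisher's exact test), but not with adjustment. It was the 1 rise among 5 receptors tested (15.7% of all genes). Of the modifying enzymes, 3 of 7 were called for 3ʹUTR-APA from 0.5 to 2 h (15.5% of all genes), FKBP10 upward and CRTAP and SERPINH1 downward, none of them with adjustment. Over all tested genes of each list, whatever their reads, the median log2 ratio of level from 0 to 2 h was 0.02 for the adhesion complex, -0.27 for the modifying enzymes, -0.96 for the proteases and inhibitors, 0.32 for the glycoproteins and -0.50 for the receptors, beside -0.02 for all genes and -0.60 for the 27 members tested.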

How the data were processed

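3ʹREADS was run on nuclear RNA of RKO cells, 1 library for each time. The submitters' processing notes name CASAVA, Bowtie2 and hg19, with no versions. The authors required 2 or more non-genomic As in a read, assigned each pA to a gene and a region, and deposited RPM values per pA. The 3 RPM columns came out as whole reads for 100% of values (tolerance 1e-06 reads), and all tests ran on these reads. No per-sample column was left unused.

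Python 3.11.15, scipy 1.17.1, numpy 2.4.6, pandas 2.3.3 and matplotlib 3.10.9 were used. Two-sided Fisher's exact tests ran over all genes, with Benjamini-Hochberg adjustment over all of them. In the 0.5–2 h window 604 genes were called for intron-APA and 477 for 3ʹUTR-APA by the unadjusted p. With adjustment these counts were 206 and 83. For level, where the adjusted p was always used, 908 genes were called in that window. The 2 pAs of a 3ʹ-most exon were ranked over the 3 libraries. Folds are ratios of RPM with exact conditional binomial intervals at 95%, and shares have Clopper-Pearson intervals. Both cover only the error of counting reads, because each time point had 1 library. Several reads can come from 1 molecule without molecular identifiers, and the intervals do not cover this. A share of 0 was given the limit of 3 reads. The windows share libraries. The scripts were tested on simulated counts.

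Members and lists were chosen with earlier results of these data known. Named members were those called in any window, the 10 with the most reads and those with at least 5 intronic reads in a library. From each list at most 4 called genes per test were named. Alternatives covered the adjustment, a minimum of 10 reads, thinning, scaling, the value added, the unit compared and the member list. Sequences and intron numbers were not analysed here, as no hg19 genome or annotation was used. The result of 1 gene of these lists is not reported here.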

Additional observations from a re-analysis of the deposited data

How the results depend on the processing

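No paired analysis was possible because each time point had 1 library and the labels number no replicates. With Benjamini-Hochberg adjustment, member calls for intron-APA went from 3 to 0 in the 0–0.5 h window, from 6 to 3 in the 0.5–2 h window and from 4 to 2 in the 0–2 h window, and those for 3ʹUTR-APA from 3 to 1 between 0 and 0.5 h and from 1 to 0 between 0.5 and 2 h. A minimum of 10 reads in each library left 1 intron-APA call between 0 and 0.5 h and 0 3ʹUTR-APA calls between 0.5 and 2 h. Without the 3 genes of other families, 1 intron-APA call was left in the 0–0.5 h window, that of HSPG2. Expression calls in the 0.5–2 h window went from 2 to 4 with 3ʹ-most-exon pAs alone. No result was reversed under the alternatives run. Of 30 called results of single members, 18 held under every alternative run for them and 12 were lost under at least 1, most of them with adjustment.

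With 1 library per time point the spread between cultures is unknown, and no library was left out. Differences in members with fewer than 20 reads were seldom detectable at this depth, and calls on ITGAV, ITGB3BP, ITGA10 and COL4A3BP rest on at most 15 reads a library.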
